A study of Homo sapiens with 4 samples.

Results

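Integrins and laminins are the receptors and the matrix ligands through which many cells hold on to a basement membrane. The genes described here were chosen by symbol: every ITGA and ITGB gene and every LAMA, LAMB and LAMC gene with at least 1 protein-coding transcript in the deposited files. This gave 38 of 58174 genes, 26 of them integrin genes and 12 laminin genes, with 392 of 199324 transcripts. Their RNA was measured by RNA-seq in Daoy, an established human cell line derived from a medulloblastoma, a tumour of the cerebellum. The 2 groups were wild type cells, with 2 libraries, and EED-knockout cells, with 2 libraries, and no treatment is named for either. EED encodes the subunit of PRC2, a Polycomb complex, that binds methylated histone tails and keeps the enzyme active; the complex methylates histone H3 at silenced genes, and the series asks how loss of EED changes expression in this tumour. The labels do not say how EED was disrupted, how many clones the knockout cells stand for, or whether libraries with the same genotype stand for separate cultures. P-values then reflect the spread among these 4 libraries alone, and that spread may be technical.

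An integrin is a heterodimer of 1 alpha and 1 beta chain, and the pair decides the ligand. ITGB1 pairs with most alpha chains, ITGAV pairs with several beta chains, and ITGB2 is best known from white blood cells. A laminin is a trimer of an alpha, a beta and a gamma chain that assembles inside the cell, is secreted, and polymerises into the sheet on which basement membranes are built. In the cerebellum, ITGB1 and laminins of the pial basement membrane are known for their part in the proliferation of granule cell precursors and in the layering of the cortex.

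EED itself had 626 and 500 counts in wild type cells and 340 and 490 in knockout cells. The mean was 31.1 ± 4.81 CPM, which are counts scaled to library size, in wild type cells and 22.04 ± 5.85 in knockout cells (SD, n = 2 each), a log2 fold change of -0.49 with a 95% interval of -1.12 to 0.13 (edgeR adjusted p = 0.878). Both knockout libraries lay below both wild type libraries, by little in EED-knockout 2. An edited gene can still be transcribed, so its RNA level checks the labels only weakly. Each library held 17835875 to 19106118 counts. Log2 CPM correlated across 10995 genes at 0.922 to 0.971 between pairs of libraries, with the lowest value between wild type 1 and EED-knockout 1 and a value of 0.931 between the 2 knockout libraries. Summed markers of white blood cells, which express their own integrins, reached 6.68 to 7.37 CPM, with CD3E at 0 in all libraries and SPI1 at 3 counts or fewer. Most of that sum was CORO1A, at 4.35 to 5.29 CPM. The markers did not move together. LCP2 had 35 and 21 counts in wild type against 8 and 4 in knockout (edgeR unadjusted p = 0.0115, adjusted p = 0.799). LYZ had 2 and 1 counts against 7 and 8. Endothelial markers summed to 79.8 and 90.2 CPM in wild type, 157 in EED-knockout 1 and 26.7 in EED-knockout 2. The high sum in EED-knockout 1 came from KDR, at 93.8 CPM there and at most 1.87 CPM elsewhere. The other 5 endothelial markers summed to 77.9 and 89.3 CPM in wild type, 63.4 in EED-knockout 1 and 26.3 in EED-knockout 2, most of it TIE1. Of these 5, CDH5 and TEK were also highest in EED-knockout 1, at 2.21 and 15.1 CPM. TIE1, PECAM1 and VWF were highest in a wild type library. TEK was at 0.0534 CPM in EED-knockout 2. Epithelial markers summed to 542 and 758 CPM in wild type, 622 in EED-knockout 1 and 642 in EED-knockout 2, most of it KRT18. KRT8 had 74.9 and 168 CPM in wild type, 54.2 in EED-knockout 1 and 154 in EED-knockout 2. CDH1 had at most 9 counts, GRHL2 at most 2, EPCAM at most 13 and ESRP1 at most 37. KRT14 had 8 and 33 counts in wild type, 3 in EED-knockout 1 and 142 in EED-knockout 2. KRT5 had 3 and 8 counts in wild type, 9 in EED-knockout 1 and 46 in EED-knockout 2. Mesenchymal markers summed to between 14596 and 20199 CPM. Of the 10 markers of the granule neuron lineage and medulloblastoma, ATOH1, the defining factor of granule cell precursors, was at 0 in all 4 libraries, and the list summed to 104 to 131 CPM. Of its 7 tested genes, 6 had a positive log2 fold change and 1 a negative one. In 3, both knockout libraries lay above wild type, against 17.8% of all genes. The 7 neural and glial markers summed to 189 to 217 CPM. Of the 6 tested, 5 had a positive log2 fold change, and 2 lay above wild type in both knockout libraries. EdgeR and DESeq2 called 0 genes of either list. In bulk RNA, fewer cells of a type and less RNA per cell cannot be told apart.

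Daoy cells expressed a broad but uneven set of these genes. Levels are compared between genes as TPM, a share of all transcripts that accounts for length, summed over protein-coding transcripts, because short non-coding transcripts take a large share of the TPM of some members. On this scale, 15 members had a mean above 10 over the 4 libraries, 10 stayed under 1 in every library, and 13 lay between. Among the beta chains, ITGB1 held 73.8% of the class, with a mean coding TPM of 379 and a range of 345 to 419 over the libraries. ITGB5, a partner of ITGAV, came next at 96.9 (63.6 to 126), and ITGB3, the other vitronectin-receptor beta chain, at 22.7 (16.9 to 30.5). Among the alpha chains the order was ITGA5, the fibronectin receptor chain, at a mean coding TPM of 77.3 (61.6 to 91.9), ITGAV at 59.5 (53.7 to 65.7), ITGA3, a laminin receptor chain, at 45.2 (36.0 to 51.7), and ITGA2, a collagen receptor chain, at 29.7 (17.1 to 42.9). Of these 4, neighbours in the order overlapped in range, except that ITGAV lay above ITGA3 in all libraries.

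The laminin genes had 1 dominant chain per class. LAMA4 took 91.3% of the alpha-chain coding TPM, LAMB1 took 89.2% of the beta-chain and LAMC1 took 88.8% of the gamma-chain total. Their mean coding TPM was 92.4 (42.1 to 123) for LAMA4, 196 for LAMB1 and 69.6 for LAMC1. LAMA3 and LAMB3, chains known from epithelial anchoring structures, had means of 0.919 and 13.1. The 10 members under 1 in every library were ITGA8, ITGA9, ITGA10, ITGAD, ITGAE, ITGAL, ITGAX, ITGB7, LAMA2 and LAMB4, among them 4 of the 5 alpha chains of white blood cells. ITGAE shows why coding transcripts were used: 79.3% of its TPM came from ITGAE-002, a processed transcript of 672 bases, and only 0.248% from coding transcripts.

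**Figure D1:**
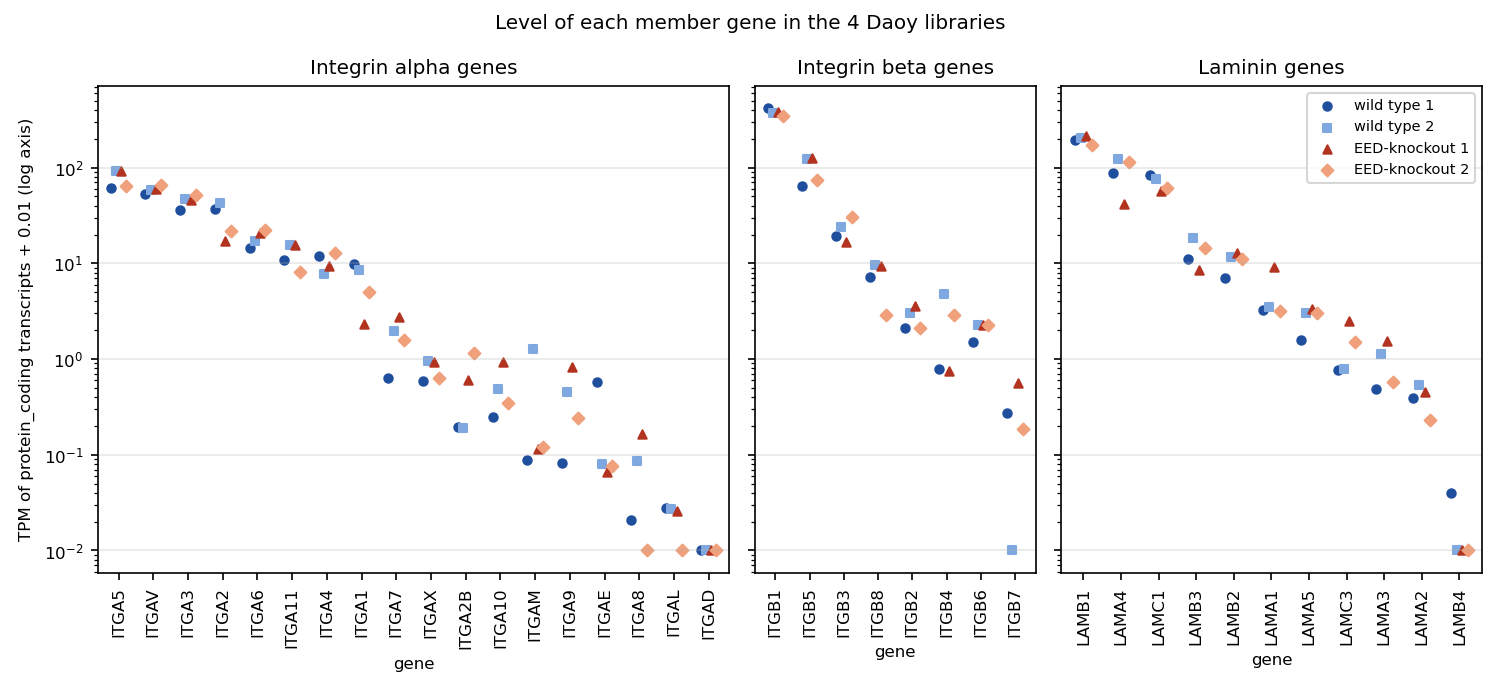
TPM of protein-coding transcripts (log axis, 0.01 added) for 37 of the 38 members, split into integrin alpha, integrin beta and laminin genes and ordered by mean level; each point is 1 library. ITGB1, LAMB1, ITGB5 and LAMA4 are the highest, and the knockout points of ITGA2 and ITGA1 lie below their wild type points.

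For the genotype comparison, 33 of the 38 members passed the filter on low counts, 22 integrin and 11 laminin genes. The 5 left out were ITGA8 (1 and 6 counts in wild type cells, 13 and 0 in knockout cells), ITGAL (2 and 1, 1 and 0), ITGAM (5 and 4, 5 and 7), ITGB7 (8 and 8, 7 and 10) and LAMB4 (1 and 3, 0 and 0). No member was called higher or lower by edgeR's quasi-likelihood test at an adjusted p under 0.05. The background was equally empty, at 0.0% of 18349 genes called higher and 0.0% called lower, with a smallest adjusted p of 0.423 over all genes and 0.565 among the members. At an unadjusted edgeR p under 0.05, 3 members were higher in the knockout (ITGA7, ITGA9 and LAMC3) against 2.85% of all genes, and 3 were lower (ITGA1, ITGA2 and LAMC1) against 3.05%. These shares of 33 lie above the background but rest on 3 genes each, and none holds after adjustment.

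DESeq2, run as an alternative on the same counts, called 0 members higher, against 0.184% of 19591 genes, and 2 lower, ITGA2 and ITGA1, against 0.23%. In CPM, 5 members had both knockout values above both wild type values (ITGA2B, ITGA6, ITGA7, ITGA9 and LAMC3) and 3 had both below (ITGA1, ITGA2 and LAMC1). This separation occurred in 17.8% of all genes upward and 18.0% downward, so the members separated by genotype no more often than other genes did. In TPM, 2 members lay above (ITGA6 and ITGB6) against a background of 23.4%, and the same 3 lay below against 12.9%. The median log2 fold change was 0.12 over the integrin genes, -0.16 over the laminin genes and 0.01 over all genes. Of the 33 members, 27 differed by less than 2-fold and 27 had a 95% interval that included 0.

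**Figure D2:**
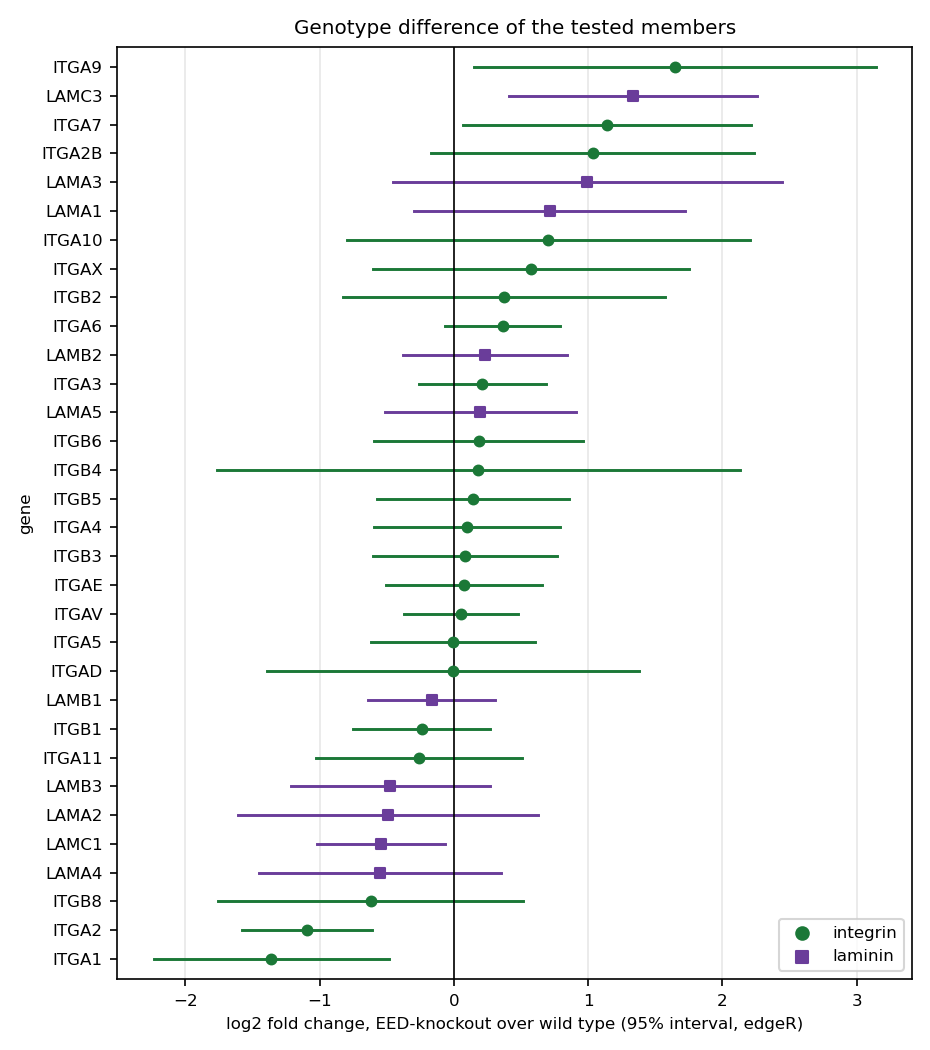
Log2 fold change of EED-knockout over wild type with its 95% interval from the edgeR fit, for 32 of the 33 tested members; circles are integrin and squares laminin genes. Intervals of ITGA1, ITGA2 and LAMC1 lie below 0 and those of ITGA9, LAMC3 and ITGA7 above 0, while the other 26 drawn include 0.

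The lowest values in the knockout belonged to the 2 alpha chains of the main collagen receptors. ITGA2, which with ITGB1 forms a receptor for collagen and laminin, had 3844 and 3964 counts in wild type cells and 1685 and 2118 in knockout cells. Both knockout libraries were well below both wild type libraries. The mean was 215 ± 5.39 CPM in wild type cells and 101 ± 17.3 in knockout cells (SD, n = 2 each), 2.13-fold lower. The log2 fold change was -1.09 ± 0.20 (SE; 95% interval -1.57 to -0.61), with an unadjusted p of 0.00105 and an adjusted p of 0.565 in edgeR and an adjusted p of 0.00357 in DESeq2. The direction was the same without any 1 library, with log2 fold changes of -1.29 to -0.92.

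ITGA1, the collagen receptor chain with a preference for basement membrane collagen, had 1497 and 1226 counts in wild type cells and 342 and 758 in knockout cells. The knockout libraries were both lower but far apart, at 2.02 and 0.88 log2 units below the wild type mean. The mean went from 75.1 ± 10.3 to 29.3 ± 15.9 CPM, a log2 fold change of -1.36 ± 0.37 (95% interval -2.24 to -0.48). The adjusted p was 0.799 in edgeR and 0.0341 in DESeq2 over all genes, but 0.0815 in DESeq2 over the genes of the edgeR filter. With 1 knockout library left, the edgeR log2 fold change was -2.06 over the same genes without EED-knockout 2 and -0.89 without EED-knockout 1. The other collagen-binding chains did not share this direction in both libraries. ITGA11, a receptor for fibrillar collagen, had 925 and 1084 counts in wild type cells and 1169 and 582 in knockout cells, and ITGA10, known from cartilage, had 19 and 35 against 68 and 24.

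The genes ITGA1 (chr5:52787896-52959210, ENSG00000213949) and ITGA2 (chr5:52989326-53094779, ENSG00000164171) are neighbours on the same strand of arm 5q in GRCh38, 30.1 kb apart. Most of that arm was lower in the knockout libraries. Among 441 other expressed genes of 5q (mean log2 CPM above 3), 392 had a negative log2 fold change and the median was -0.39. The arm's median deviated by 0.13 and -0.13 in the wild type libraries and by -0.45 and -0.31 in the knockout libraries. Within 5 Mb of the pair, 29 of 31 other tested genes were lower in the knockout and 2 were higher, with a median of -0.43 and a range of -1.45 to 1.17, and 2 lay below ITGA2. Of these, 18 had a mean log2 CPM above 3, the limit used for the arm. All 18 were lower, with a median of -0.52. Their median deviated by -0.68 in EED-knockout 1 and by -0.40 in EED-knockout 2.

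PELO, a ribosome-rescue factor whose gene lies within ITGA1 on the same strand, had 1401 and 1422 counts in wild type cells and 787 and 1234 in knockout cells, a log2 fold change of -0.54 (edgeR adjusted p = 0.857). Relative to the median of all 31 neighbours, -0.43, ITGA2 was lower by a log2 difference of -0.66 and ITGA1 by -0.93. The 18 more highly expressed neighbours had a lower median, -0.52, so the differences from that median are smaller. With the median of each chromosome arm removed from each library, a setting added after the data were seen, the log2 fold changes were -0.72 for ITGA2 and -0.99 for ITGA1 (edgeR adjusted p = 0.826 for each). The part of the arm in the values of the pair was not tested beyond these figures.

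**Figure D3:**
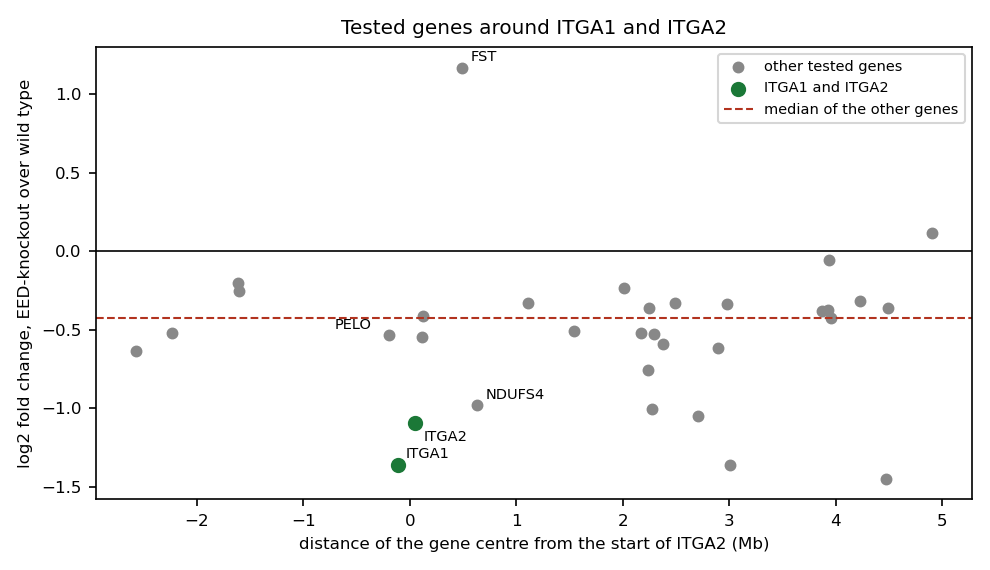
Log2 fold change of EED-knockout over wild type (vertical axis) of the tested genes within 5 Mb of ITGA1 and ITGA2, against the distance of the gene centre from the start of ITGA2 in Mb. ITGA1 and ITGA2 (green) lie below the dashed median of the other 31 genes, -0.43, while 29 of those 31 lie below 0.

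The promoters of the 3 members that were lower in both knockout libraries are shown because CG content, a feature of promoters where Polycomb complexes are often found, was not used to choose the genes. Each runs from 250 bases before to 50 bases after the RefSeq start (GRCh38.p14), 5′ to 3′ on the plus strand, with CG dinucleotides in capitals. They lie at chr5:52787666-52787965 for ITGA1, chr5:52989102-52989401 for ITGA2 and chr1:183023170-183023469 for LAMC1.
ITGA1: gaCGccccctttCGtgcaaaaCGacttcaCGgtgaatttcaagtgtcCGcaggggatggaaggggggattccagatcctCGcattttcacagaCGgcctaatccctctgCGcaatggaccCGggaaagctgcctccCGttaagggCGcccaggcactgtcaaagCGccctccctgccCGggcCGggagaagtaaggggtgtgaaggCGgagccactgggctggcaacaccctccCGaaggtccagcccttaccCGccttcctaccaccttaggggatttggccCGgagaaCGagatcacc
ITGA2: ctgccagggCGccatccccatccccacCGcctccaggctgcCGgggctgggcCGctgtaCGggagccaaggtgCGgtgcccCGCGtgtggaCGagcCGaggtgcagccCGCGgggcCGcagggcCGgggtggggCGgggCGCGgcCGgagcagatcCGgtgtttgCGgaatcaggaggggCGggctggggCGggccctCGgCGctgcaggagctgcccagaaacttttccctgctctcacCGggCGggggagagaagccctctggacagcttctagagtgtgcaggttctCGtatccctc
LAMC1: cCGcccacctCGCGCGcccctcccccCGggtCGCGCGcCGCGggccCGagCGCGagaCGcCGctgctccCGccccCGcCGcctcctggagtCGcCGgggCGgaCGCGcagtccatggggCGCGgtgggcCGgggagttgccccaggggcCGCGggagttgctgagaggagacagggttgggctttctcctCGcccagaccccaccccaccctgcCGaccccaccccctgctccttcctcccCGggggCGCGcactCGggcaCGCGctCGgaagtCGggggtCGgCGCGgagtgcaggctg
The ITGA1 window held 19 CG dinucleotides, at the 57.1 percentile of 35116 promoter windows of the same length, and included the start of PELO. The ITGA2 window held 27, at the 71.8 percentile, and the LAMC1 window held 41, at the 93.3 percentile. The motif GGGCGG, searched on both strands, occurred 4 times in the ITGA2 window, 3 times in the LAMC1 window and not in the ITGA1 window, and 45.0% of all windows held it. The motifs TGANTCA and GGAATG, on both strands, were in none of the 3 windows and in 7.71% and 14% of all windows. Of the 26 members with a window, 14 held GGGCGG, 2 held TGANTCA and 4 held GGAATG. The 22 of them that passed the count filter had a median of 15.5 CG dinucleotides (0 to 41), against 14 over all windows. The 4 that did not pass had a median of 3.0 (2 to 27), so the ranges overlapped. ITGA7, ITGA9 and LAMC3, which were higher in the knockout at an unadjusted edgeR p under 0.05, had no window.

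The 3 alpha chains grouped here as laminin-binding, ITGA3, ITGA6 and ITGA7, had positive log2 fold changes, of which 1 had an unadjusted edgeR p under 0.05. ITGA2, which also binds laminin but was grouped with the collagen receptors, had a negative one, -1.09. ITGA6, which pairs with ITGB1 or ITGB4, had 1041 and 1057 counts in wild type cells and 1379 and 1431 in knockout cells. The libraries of each genotype lay close together and apart from the other genotype, at 57.9 ± 0.815 and 74.5 ± 2.72 CPM (SD, n = 2 each). The difference was small, a log2 fold change of 0.37 ± 0.18 (95% interval -0.06 to 0.79; edgeR adjusted p = 0.865). ITGA3 had 2820 and 3267 counts in wild type cells and 3360 and 3974 in knockout cells, a log2 fold change of 0.21 ± 0.20. ITGA7, the laminin receptor chain of muscle, had 45 and 81 counts in wild type cells and 185 and 105 in knockout cells, a log2 fold change of 1.14 ± 0.45 (edgeR unadjusted p = 0.0402, adjusted p = 0.823). Its TPM ranges overlapped, at 1.46 and 3.50 in wild type against 6.99 and 3.36. ITGA7 overlaps BLOC1S1, METTL7B and RP11-644F5.10 on the opposite strand. BLOC1S1 had 474 and 461 counts in wild type cells and 351 and 445 in knockout cells. METTL7B had 3 and 17 against 38 and 24, and RP11-644F5.10 had 63 and 91 against 96 and 76. Whether the libraries keep strand is not stated in the labels, and how far reads of these genes were confused was not tested.

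The chains that bind the RGD sequence of fibronectin and vitronectin differed little. ITGA5 had 3912 and 5577 counts in wild type cells and 5763 and 4083 in knockout cells, a log2 fold change of -0.01 ± 0.26. ITGAV had 4741 and 4473 against 4940 and 5004, a log2 fold change of 0.05 ± 0.18. Each genotype held both a high and a low ITGA5 library, and the 4 ITGAV libraries were close. ITGA2B, the platelet fibrinogen receptor chain, had 15 and 14 counts against 30 and 32, so its log2 fold change of 1.03 ± 0.51 rests on few counts and its TPM values overlapped.

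ITGA4, a receptor chain for VCAM1 and fibronectin, had 689 and 416 counts in wild type cells and 538 and 691 in knockout cells, a log2 fold change of 0.10 ± 0.29. Its relative ITGA9, a receptor chain for tenascin and osteopontin, had 8 and 9 counts against 38 and 18, a log2 fold change of 1.65 ± 0.63 (edgeR unadjusted p = 0.0356, adjusted p = 0.808). The antisense transcript gene ITGA9-AS1 overlaps it and had 22 and 37 counts against 33 and 27, and how far reads of the 2 genes were confused was not tested. The white blood cell chains stayed low and overlapped between genotypes. ITGAX had 24 and 39 counts against 60 and 38, ITGAD had 12 and 17 against 14 and 16, and ITGAE, whose counts were mostly non-coding and which overlaps GSG2 on the opposite strand, had 354 and 483 against 439 and 479.

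None of the beta chains had an unadjusted edgeR p under 0.05, and all 7 tested differed by less than 2-fold. ITGB1, the common partner, had 18544 and 14373 counts in wild type cells and 15436 and 13566 in knockout cells, a log2 fold change of -0.24 ± 0.21 that is within the spread of the wild type libraries. ITGB5 had 2824 and 4454 counts against 5104 and 3266, and ITGB3 had 1039 and 1140 against 865 and 1533. ITGB4, the hemidesmosome chain that pairs with ITGA6, had 42 and 212 counts against 63 and 236. Here the second library of each genotype was the high one, and the log2 fold change of 0.18 ± 0.82 has the widest error of the beta chains.

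ITGB8, which with ITGAV activates latent TGF-beta, had 751 and 866 counts in wild type cells and 840 and 259 in knockout cells. Only EED-knockout 2 was low, 1.65 log2 units below the wild type mean, and the log2 fold change over all libraries was -0.62 ± 0.48. Without EED-knockout 1, which leaves 1 knockout library, it was -1.68 over the same genes. ITGB6, a partner of ITGAV in epithelia, had 99 and 127 counts against 122 and 145. Its TPM separated the genotypes, at 3.77 and 3.87 against 5.77 and 16.9. Of the 16.9 TPM in EED-knockout 2, ITGB6-010, a processed transcript of 331 bases, gave 11.6 from 12 counts. ITGB2, the white blood cell chain, had 32 and 42 counts against 67 and 33.

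Among the laminin chains, LAMC1 was the one abundant gene that was lower in both knockout libraries. LAMC1 (chr1:183023460-183145592), the gamma chain of most laminins, had 9784 and 7869 counts in wild type cells and 6203 and 6386 in knockout cells. The knockout libraries were close and both below wild type, with means of 487 ± 73.1 and 334 ± 10.3 CPM (SD, n = 2 each). The log2 fold change was -0.54 ± 0.20 (95% interval -1.02 to -0.07; edgeR unadjusted p = 0.0304, adjusted p = 0.808). Its TPM was 177 and 141 in wild type cells and 117 and 110 in knockout cells. The 59 other tested genes within 5 Mb had a median log2 fold change of -0.23, and the log2 fold change of LAMC1 was -0.34 with arm medians removed (edgeR adjusted p = 0.842). LAMB1, its main partner chain, did not separate the genotypes and had 14656 and 13568 counts in wild type cells and 14358 and 11843 in knockout cells, a log2 fold change of -0.16 ± 0.20.

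LAMC3 (chr9:131009082-131094473), a gamma chain of non-classical basement membranes known from brain and retina, had 78 and 67 counts in wild type cells and 248 and 134 in knockout cells. Both knockout libraries were higher, with means of 4.0 ± 0.416 and 10.1 ± 4.17 CPM (SD, n = 2 each). The log2 fold change was 1.34 ± 0.39 (95% interval 0.41 to 2.26), with an unadjusted p of 0.0112 and an adjusted p of 0.799 in edgeR and an adjusted p of 0.298 in DESeq2. In TPM the genotypes overlapped, at 1.71 and 0.886 in wild type against 3.69 and 1.62.

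In LAMA4 and LAMA1, 1 knockout library stood apart from the other 3 libraries. LAMA4, the abundant chain, had 5940 and 6915 counts in wild type cells and 2726 and 6377 in knockout cells, with EED-knockout 1 low. LAMA1, the chain of the embryonic basement membrane and of the pial surface, had 538 and 470 counts against 1261 and 463, with EED-knockout 1 high. LAMA3 had 40 and 106 counts against 221 and 83, with wide gaps within both genotypes. LAMA2, the chain of muscle and Schwann cell basement membranes, had 52 and 64 counts against 56 and 30, with EED-knockout 2 low, and LAMA5, a chain of many adult basement membranes that overlaps ADRM1 on the opposite strand, had 334 and 577 against 501 and 585. The other beta chains also overlapped, with 691 and 1088 counts against 1172 and 1004 for LAMB2 and 522 and 844 against 412 and 610 for LAMB3.

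The distance between the 2 knockout libraries was often larger than the distance between genotypes. Of the 33 tested members, 22 had a larger gap between the knockout libraries than between the genotype means on the log2 CPM scale, and 19 had a larger gap between the wild type libraries. The median gap was 0.58 between the knockout libraries, 0.31 between the wild type libraries and 0.36 between genotypes. In 11 members the knockout libraries lay on opposite sides of the wild type mean. A gap between 2 single libraries varies more than a difference between 2 means, so larger gaps are common even without a genotype difference. These counts were also not made over all genes, so they do not set the members apart from other genes. LAMA4 lay 1.30 and 0.05 log2 units below the wild type mean in EED-knockout 1 and 2. Without EED-knockout 2 the log2 fold change of LAMA4 was -1.31 and that of LAMA1 was 1.25, and without EED-knockout 1 they were -0.06 and -0.17.

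**Figure D4:**
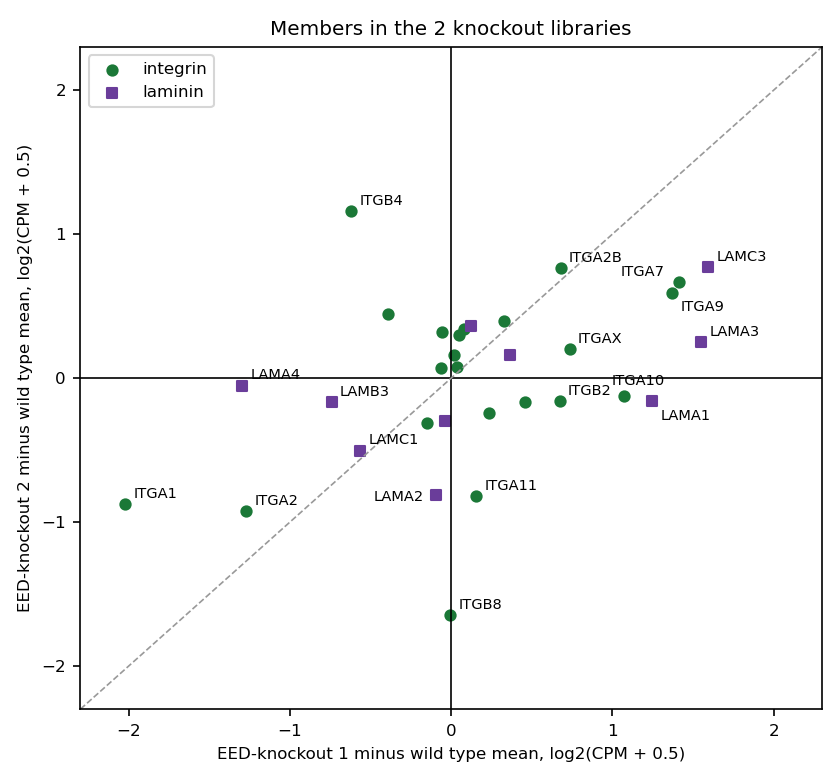
Difference of each knockout library from the wild type mean, log2(CPM + 0.5), for 32 of the 33 tested members; EED-knockout 1 is on the horizontal and EED-knockout 2 on the vertical axis, and points on the dashed line have equal values in both. ITGA2 and LAMC1 lie near the line, ITGB8 is low only in EED-knockout 2, and LAMA4 is low only in EED-knockout 1.

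At the level of transcripts, 122 of the 392 member transcripts could be tested. None was called by edgeR (smallest adjusted p = 0.823). At an unadjusted p under 0.05, 6 were higher, against 2.21% of 56858 transcripts, and 4 were lower, against 2.43%. The lower values of the collagen receptor genes came from the main coding transcripts. ITGA2-001, with 96.4% of the gene's TPM, had 3830 and 3921 counts in wild type cells and 1644 and 2031 in knockout cells, while ITGA2-002, a transcript annotated for nonsense-mediated decay, had 5.28 and 9.999 against 27.7 and 37.1. ITGA1-001 had 1374 and 1067 counts against 301 and 637, and LAMC1-001 had 9219 and 7502 against 5862 and 6114.

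The higher ITGA6 counts came mostly from 1 of its 2 abundant coding transcripts. ITGA6-001 had 496 and 464 counts in wild type cells and 791 and 747 in knockout cells (log2 fold change 0.62 ± 0.19, edgeR unadjusted p = 0.0261, adjusted p = 0.934). ITGA6-004 had 528 and 539 against 568 and 669. LAMA4 was spread over several coding transcripts, of which LAMA4-009 had 3022 and 3365 counts in wild type cells and 1249 and 2415 in knockout cells, and LAMA4-001 had 754 and 979 against 265 and 1427.

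Among low members, some transcripts, picked after their values were seen, were at or near 0 in all libraries of 1 genotype. ITGB4-001 had 0 and 0 counts in wild type cells and 63.0 and 50.2 in knockout cells, and ITGAX-004 had 0 and 0 against 22.2 and 14.6. LAMA2-201 had 50.7 and 14.9 against 0.0793 and 0, while the gene as a whole overlapped between genotypes. Counts of transcripts that share most of their exons are divided by kallisto's model, so a 0 here can mean that the fragments were given to a sister transcript.

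**Figure D5:**
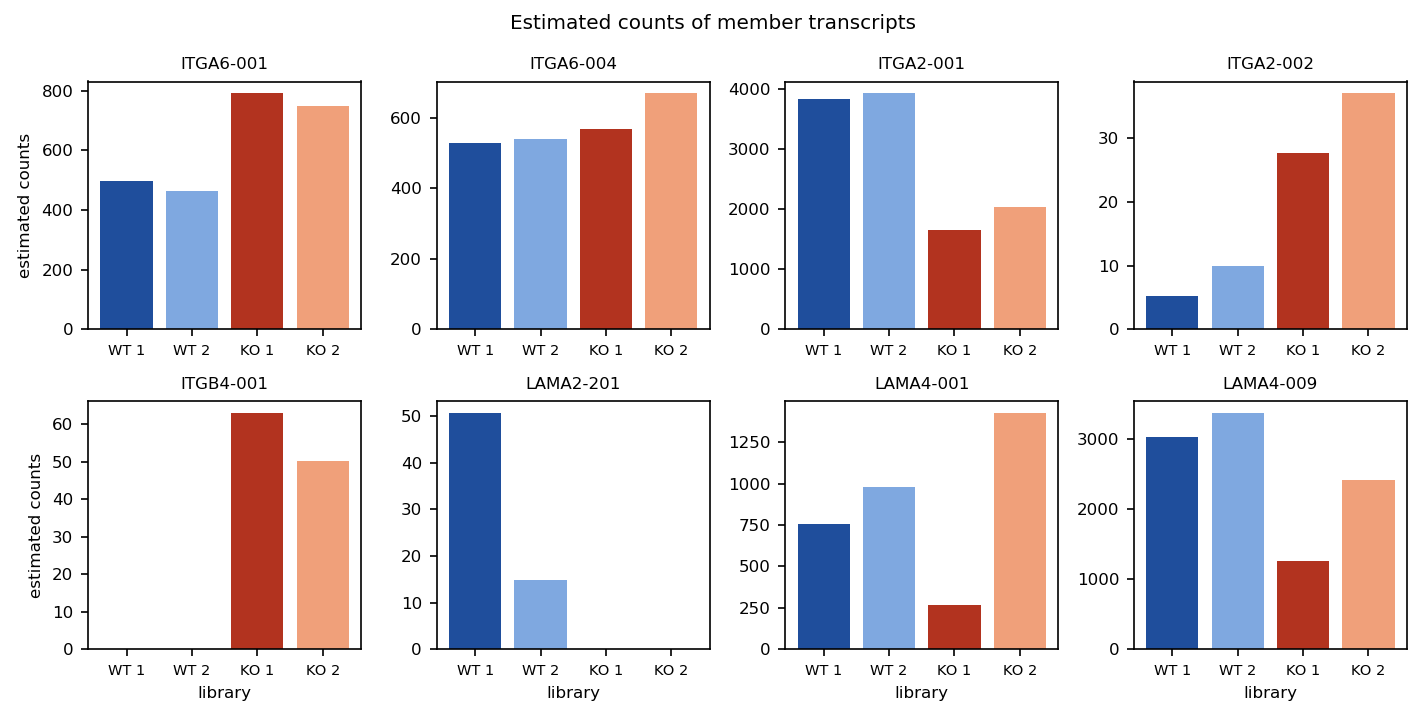
Estimated counts of 8 member transcripts in the 4 libraries (WT, wild type; KO, EED-knockout); each bar is 1 library, each panel has its own vertical axis from 0, and there is no error bar because a bar is a single value. ITGA6-001 and ITGA2-002 are higher and ITGA2-001 lower in both knockout libraries, while LAMA4-001 is highest in EED-knockout 2.

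The genes around these receptors were described from 5 lists: focal adhesion adaptors and kinases, basement membrane partners, other laminin receptors, other integrin ligands and lateral membrane partners. Of their 57 genes 56 were tested. Neither edgeR nor DESeq2 called any of them. Over all genes, edgeR called 0.0% higher and 0.0% lower, and DESeq2 called 0.184% and 0.23%. At an unadjusted edgeR p under 0.05, 3 partners were higher, against 2.85% of all genes, and 2 were lower, against 3.05%. The median log2 fold change of the partners was 0.13. Both knockout libraries lay above wild type in 12 partners and below in 6, with the same backgrounds as for the members.

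The smallest unadjusted p-values belonged to matrix ligands of integrins. TNC, the tenascin bound by ITGA9 and ITGAV integrins, had 6513 and 8450 counts in wild type cells and 13665 and 12144 in knockout cells, a log2 fold change of 0.73 ± 0.22 (edgeR unadjusted p = 0.0117, adjusted p = 0.799). SPP1, or osteopontin, had 193 and 108 counts in wild type cells and 25 and 55 in knockout cells, a log2 fold change of -1.96 ± 0.52 (edgeR unadjusted p = 0.00672, adjusted p = 0.799; DESeq2 adjusted p = 0.0760). Both genes separated the genotypes, in opposite directions. CYR61, a matricellular ligand of ITGAV integrins, had 7718 and 6988 counts against 12466 and 9780, and CD151, the tetraspanin that binds laminin-binding integrins, had 1792 and 2539 against 3690 and 2963. PARVG, a parvin best known from white blood cells, had 74 and 136 counts against 424 and 143, high only in EED-knockout 1. On the lower side, SDC4, a heparan sulphate co-receptor in focal adhesions, had 3635 and 4088 counts against 2823 and 2458. FERMT2, a kindlin that activates integrins, had 2654 and 1783 against 1705 and 1950, and FBN1, a fibrillin with an RGD site, had 5089 and 5309 against 4564 and 4593. For FERMT2 and FBN1 the unadjusted edgeR p was 0.206 and 0.225.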

How the data were processed

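Total RNA of 4 Daoy libraries, 2 wild type and 2 EED-knockout, was sequenced; the labels give each library's group and replicate number. The submitters' processing notes name kallisto 0.43.1 and the build hg38, and the deposited estimated counts are that tool's fragment numbers for each transcript. Per the file headers, the deposited TPM values are transcript abundances that account for effective length and sum to the same total in each library. Deposited effective lengths entered only the length-scaled alternative. The annotation release, the strand setting and the run settings are not stated in the labels or headers.

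Members and lists were chosen with earlier results of these data known. For each gene, the estimated counts of its transcripts were added and rounded to whole numbers. Genotypes were compared with edgeR 4.0.16 in R 4.3.3 (quasi-likelihood F test, TMM factors, filterByExpr with minimum count 10 and minimum total 15, no covariate), which left 18349 genes. Two-sided p-values were adjusted over all of these genes (Benjamini-Hochberg) and called at 0.05. Transcripts were tested in the same way over 56858 transcripts. An exact permutation test of 2 against 2 libraries cannot go below p = 0.333 and was not used. Members were named with their values, except 1 that is counted among the members but not reported here, and partner genes were the 4 in each direction with the smallest unadjusted p. A floor of 3 counts stood for 0.158 to 0.166 CPM, and intervals come from 2 libraries a genotype. Gene positions are those of GENCODE 29 (GRCh38), and promoter windows those of RefSeq (GRCh38.p14), which held 26 of the 38 members.

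The comparison was repeated with DESeq2 size factors, without a filter and with a stricter one, with the replicate block, on length-scaled counts, on protein-coding transcripts only, with DESeq2 1.42.0, limma 3.58.1 (voom, and trend on log2(TPM + 1) and log2(TPM + 0.1)), and without each library in turn. DESeq2 on the filtered genes, the same genes kept when a library was left out, and chromosome arm medians removed were added after the data were seen. In 1 simulation per fold for this comparison, with 17741 to 17788 genes tested and 196 changed ones among them, edgeR recovered 0.51% of genes changed 2-fold, 68.9% changed 4-fold and 81.1% changed 8-fold, and DESeq2 recovered 24.5%, 72.96% and 81.6%. False calls were 1, 26 and 14 for edgeR and 26, 45 and 31 for DESeq2 at 2-, 4- and 8-fold, and 3 and 10 with no gene changed.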

Additional observations from a re-analysis of the deposited data

How the results depend on the processing

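Of 636 values for 32 of the tested members over 20 alternatives, 571 kept their direction and their side of the threshold, 60 changed sign and 5 passed the threshold. In 15 members the sign held in every setting. With DESeq2, 36 genes were called higher and 45 lower over all genes, 2 of the lower being integrin genes, and on the filtered genes 26 and 42, with 1 integrin gene. Without each library in turn, 0 to 49 genes were called higher and 0 to 54 lower, and 0 to 1 integrin genes were called lower (ITGB8 without EED-knockout 1 and ITGA1 without EED-knockout 2, both with the same genes kept). With the same genes kept, 38 and 54 genes were called without EED-knockout 1, 49 and 46 without EED-knockout 2 and 1 and 3 without wild type 2. With the filter applied again, these were 15 and 8 without EED-knockout 1 and 9 and 10 without wild type 2. The integrin median ranged from 0.015 to 0.32 over the libraries left out, with the highest value without wild type 2, and the laminin median was 0.034 and 0.035 in the TPM fits with pseudocounts 1 and 0.1. The labels do not say whether equal replicate numbers mark a pairing. Same-numbered libraries correlated in their deviations at -0.22 and cross-numbered ones at 0.22. With 2 libraries a group these are 1 value with its sign turned, so they cannot show whether anything was shared. With the replicate block 0 genes were called, and the log2 fold change of ITGA2 was -1.10 and that of ITGA1 -1.46. Signs turned, as log2 fold changes, in the same TPM fits for ITGA5 (0.051 and 0.052), ITGAV (-0.018 and -0.018), ITGB4 (-0.66 and -0.96), LAMA2 (0.22 and 0.39), LAMA5 (-0.16 and -0.18), LAMB1 (0.043 and 0.043), and with length-scaled counts for ITGAV (-0.12), ITGAX (-0.0084), ITGB4 (-0.93), ITGB5 (-0.052), LAMA2 (0.40), LAMA5 (-0.27), LAMB2 (-0.077). They also turned for ITGAD with limma-voom (0.0079) and with the replicate block (0.0067), and with arm medians removed for ITGAE (-0.10) and ITGB3 (-0.032). Leaving out each library turned the sign of ITGA10 (-0.21 to 1.26), ITGA11 (-0.83 to 0.15), ITGA4 (-0.22 to 0.51), ITGA5 (-0.26 to 0.28), ITGAD (-0.24 to 0.27), ITGAE (-0.13 to 0.32), ITGB2 (-0.21 to 0.79), ITGB3 (-0.41 to 0.45), ITGB4 (-1.08 to 1.78), ITGB5 (-0.20 to 0.51), LAMA1 (-0.17 to 1.26), LAMA5 (-0.15 to 0.65) and LAMB2 (-0.060 to 0.60). For a genotype with 1 library left, the spread of the other genotype stood in. The causes of these turns were not tested.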
